A study of Mus musculus with 2 samples.

Results

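The genes described here make, clear or answer to oxysterols in MOS-J cells, a mouse osteosarcoma line, profiled on 2 expression arrays. They are 10 genes, grouped by the pathway they belong to and chosen by the signals of these same arrays. All differences below are therefore descriptions, and none carries a test. Of the 10, 9 had at least 1 probe set that carried their symbol alone, out of 18193 genes with such a probe set. These 9 genes had 15 probe sets, and Nr1h2 is not analysed here. The control group was 1 array of MOS-J cells with a control vector, and the DKK1 group was 1 array of MOS-J cells with the human DKK1 gene, whose product blocks canonical Wnt signalling outside the cell. The sample labels call both vectors lentiviral. The protocol describes clones picked by G418 resistance after viral delivery, and also a plasmid line picked with blasticidin S and given a red fluorescent mitochondrial label driven by the cytomegalovirus promoter. Which of these routes the profiled cells took, and how many clones they stand for, is not stated in the labels. With 1 array per group no value has a replicate error, and each difference compares these 2 arrays.

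Oxysterols are oxidised forms of cholesterol. Cholesterol 25-hydroxylase makes 25-hydroxycholesterol in the endoplasmic reticulum, and the enzymes encoded by Cyp7b1 and Hsd3b7 modify it further towards bile acids. Oxysterols hold back cholesterol synthesis through the Insig proteins and activate the liver X receptors (LXRs), nuclear receptors that work in pairs with retinoid X receptors. Active LXRs switch on genes that send cholesterol out of the cell, such as Abca1, Abcg1 and Apoe, and Mylip, which encodes a ubiquitin ligase. The pathway is best known in macrophages and liver, and loading of either cell type with sterol brings it on.

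Each value is a MAS5 signal, an intensity on a linear scale that sums up the probes of 1 probe set. The authors scaled each array on its own, and the mean signal without the top and bottom 2% was 500.0 on both. Differences are DKK1 minus control on the log2(signal + 16.6) scale, with 16.6 taken as the 25th percentile of the signals on both arrays, and they understate the change of dim genes. A probe set counted as measured where its mean signal over both arrays reached 71.3, the median of such means, and measured probe sets of a gene were averaged. A gene was called higher or lower at a difference of at least 1, which is 2-fold, provided that no measured probe set went the other way. Over all 11058 measured genes the median difference was 0.10. The pooled SD between measured probe sets of the same gene was 0.45, which reflects agreement within the arrays and not the spread between cultures. Spike-in RNAs bear on the scaling. The 18 hybridisation controls had a median log2 ratio of −0.37 and the 20 poly-A controls above the filter had one of 0.64, so a shared shift of this order cannot be told apart from the scaling.

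Of the 10 genes, 7 passed the filter, with 9 of the 15 probe sets, while Abcg1 and Apoe had dim probe sets alone. In the DKK1 cells Ch25h was lower, Abca1 and Apod were higher, and Cyp7b1, Hsd3b7, Nr1h3 and Mylip differed by less than 2-fold. Thus 2 of the 7 were called higher, where 11.7% of all measured genes were, and 1 was called lower, where 6.91% were. The genes were picked with this contrast in view, so these shares say nothing about the pathway. The 7 genes had a median difference of 0.58, with 5 above 0 and 2 below. The lower one makes 25-hydroxycholesterol, and the higher ones export cholesterol and carry small lipids.

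**Figure D1:**
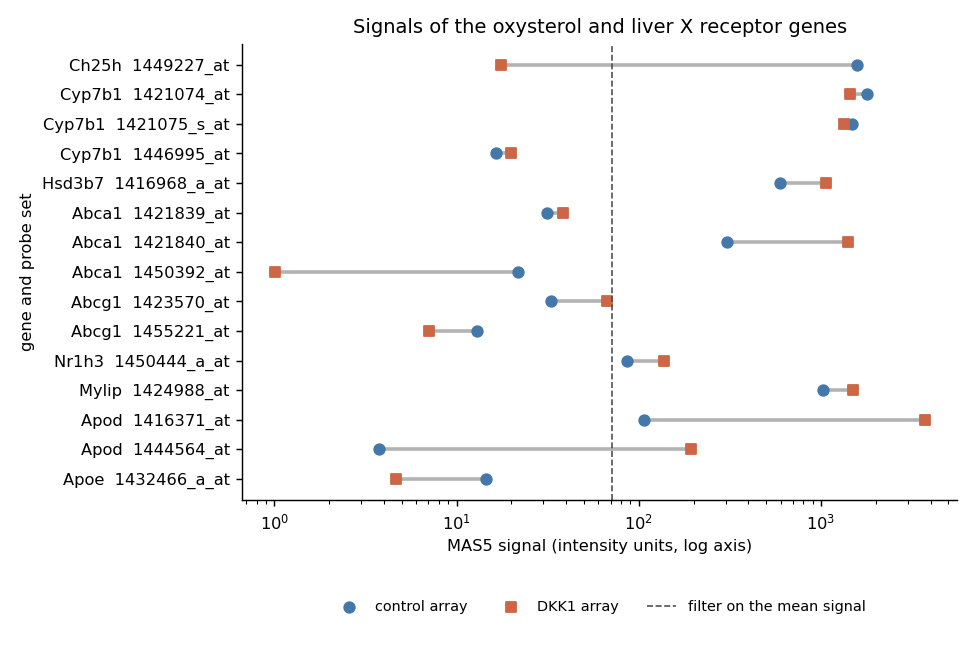
MAS5 signal on a log axis for each of the 15 probe sets of the 9 genes, with circles for the control array and squares for the DKK1 array and a dashed line at the filter of 71.3 on the mean signal. Ch25h read 1573 against 17.5, both Apod probe sets and the 1 bright Abca1 probe set were clearly higher on the DKK1 array, and both bright Cyp7b1 probe sets lay close together.

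Promoters of the 3 called genes are shown because these are the members whose signals parted most between the arrays. Each is the 250 bases before the transcription start in RefSeq, build GRCm38.p6, on the minus strand, written 5′ to 3′. Windows for 8 of the 10 genes were found in that table. Capitals mark matches, on either strand, to 6 motifs: the TATA box (TATAAA), the cAMP response element (TGACGTCA), the E-box (CACGTG), the sterol regulatory element (TCACNCCAC), the interferon-stimulated response element (2 copies of GAAA with 2 bases between) and a relaxed form of the DR4 repeat that LXRs bind (2 copies of GGTNA with 5 bases between). The relaxed DR4 spelling was settled after the Abca1 window had been seen.
Ch25h, chr19:34475149-34475398: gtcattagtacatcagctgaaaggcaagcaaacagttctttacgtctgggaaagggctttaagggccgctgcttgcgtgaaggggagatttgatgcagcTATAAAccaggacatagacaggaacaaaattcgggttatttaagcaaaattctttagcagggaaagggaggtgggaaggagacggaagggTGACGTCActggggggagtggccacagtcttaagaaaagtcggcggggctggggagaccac
Abca1, chr4:53159896-53160145: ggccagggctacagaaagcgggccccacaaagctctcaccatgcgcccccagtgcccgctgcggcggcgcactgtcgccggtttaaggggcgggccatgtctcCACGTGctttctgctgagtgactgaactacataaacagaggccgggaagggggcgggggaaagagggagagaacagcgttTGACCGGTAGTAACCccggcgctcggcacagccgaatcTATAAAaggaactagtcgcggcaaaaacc
Apod, chr16:31314809-31315058: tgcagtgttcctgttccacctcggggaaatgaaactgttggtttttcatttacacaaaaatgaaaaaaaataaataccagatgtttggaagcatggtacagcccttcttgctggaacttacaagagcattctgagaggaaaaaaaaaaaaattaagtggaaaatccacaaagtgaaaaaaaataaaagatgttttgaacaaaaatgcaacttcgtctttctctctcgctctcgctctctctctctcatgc

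The Ch25h window held a cAMP response element from 61 to 54 bases before the start and a TATA box from 151 to 146 bases before it. Of all 32851 windows of this length, 1.55% held that response element and 12.4% a TATA box. The Abca1 window held the relaxed DR4 form from 67 to 53 bases before the start, an E-box from 147 to 142 and a TATA box from 29 to 24. The E-box was found in 6.02% of all windows. The relaxed DR4 form was found in 0.621%, but as its spelling was settled on the Abca1 window, that share says nothing about Abca1. The Apod window held none of the 6 motifs. It was also poor in G and C, at 36.4%, against 50.4% for Ch25h, 61.6% for Abca1 and a median of 52.4% over all windows. Among the 11 windows of the 8 genes, the interferon and sterol elements had 0 matches. They were found in 2.98% and 1.05% of all windows, so 11 windows are too few to show a lack of them. No matches in the printed windows overlapped. A match is a stretch of letters and does not show that a factor was bound.

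Ch25h encodes cholesterol 25-hydroxylase. Its 1 probe set, 1449227_at, read 1573 in the control cells and 17.5 in those with DKK1. The control signal lay far above the filter and the DKK1 signal below it, so only a bound on the size can be given. With the dim signal raised to 71.3, the fall of Ch25h was at least 22.1-fold, and its log2 difference was −5.54. The call held under all 13 alternative processing settings, with differences from −6.49 to −4.23. With 1 probe set, the settings that change the filter or the choice of probe sets returned −5.54 and could give no other value. No other probe set carried its symbol alone, so the value has no check within the arrays.

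Cyp7b1 encodes a hydroxylase that acts on the ring of 25-hydroxycholesterol and of related sterols. Its probe set 1421074_at went from 1782 in control to 1441 in DKK1 cells, and 1421075_s_at from 1476 to 1346. Both bright probe sets were slightly lower on the DKK1 array, with a mean difference of −0.22 (SD 0.12 between 2 probe sets), and the third was dim on both arrays at 16.4 and 19.9. The direction turned to 0.15 when the arrays were scaled on the hybridisation controls. Hsd3b7 encodes a steroid dehydrogenase that follows Cyp7b1 in this route. It read 593 in the control cells and 1062 in those with DKK1, which is 0.82 on the log2 scale and was not called. With scaling on the hybridisation controls it was called, at 1.19.

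The enzymes of this route thus differed by unequal amounts. The ratio of one gene's change to another's within the arrays does not depend on a constant scaling. The log2 ratio of DKK1 to control without pseudocount was 1.06 larger for Hsd3b7 than for Cyp7b1. The same comparison for Ch25h rests on a signal below the filter and is left as the bound above.

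Of the receptors, Nr1h3 encodes LXR alpha, the form found mainly in liver, fat and macrophages. It read 86.1 in the control cells and 137 in those with DKK1 (0.58). Both signals passed the filter but were dim, and the gene was not called under any of the 12 alternatives in which it was measured, with differences from 0.025 to 0.92. LXR beta, the form made in most tissues and encoded by Nr1h2, is not analysed here, so the arrays leave the total receptor level undescribed.

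Among LXR targets, Abca1 encodes the pump that loads cholesterol onto apolipoprotein A-I. Its probe set 1421840_at read 305 in the control cells and 1412 in those with DKK1, a 4.64-fold difference, or 2.15 on the log2(signal + 16.6) scale. The other Abca1 probe sets were dim and split. One went from 31.5 to 38.5 and the other from 21.8 to 1.01. With all 3 probe sets counted the difference was 0.41 and the call ended, so the higher level of Abca1 rests on 1 probe set. Of 9519 measured genes with every measured signal above the filter on both arrays, 1.09% had a difference as high as that of Abca1. Because Abca1 was chosen by these same signals, that share is a description and not a test.

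Mylip, the ubiquitin ligase gene, read 1030 in the control cells and 1507 in those with DKK1, and its difference of 0.54 went to −0.090 with scaling on the poly-A controls. Abcg1, an exporter that loads cholesterol onto high-density lipoprotein, had signals of 33.0 and 13.0 in control against 67.3 and 7.05 in DKK1 cells. Apoe, whose product carries lipids out of cells, had 14.5 in control and 4.66 in DKK1 cells. Neither Abcg1 nor Apoe reached the filter on either array, so no fold is given for them. Across the 4 classical targets Abca1, Mylip, Abcg1 and Apoe, therefore, 1 was called, 1 was not, and 2 could not be judged. The log2 ratio without pseudocount of Abca1 exceeded that of Mylip by 1.66 and that of Nr1h3 by 1.54, which a constant scaling leaves as they are. Both values rest on the 1 bright Abca1 probe set. With all probe sets counted the order turned, with Abca1 at 0.41, Mylip at 0.54 and Nr1h3 at 0.58.

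Apod encodes apolipoprotein D, a lipocalin that binds small lipids such as arachidonic acid and progesterone. Its probe set 1416371_at read 107 in the control cells and 3721 in those with DKK1, a 34.9-fold difference with both signals above the filter. The other, 1444564_at, went from 3.74 to 192, which is at least 2.70-fold. Both probe sets were higher on the DKK1 array, by 4.92 and 3.36, for a mean of 4.14 (SD 1.11 between 2 probe sets). Apod was called under all 13 alternatives, with differences from 3.13 to 5.41.

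**Figure D2:**
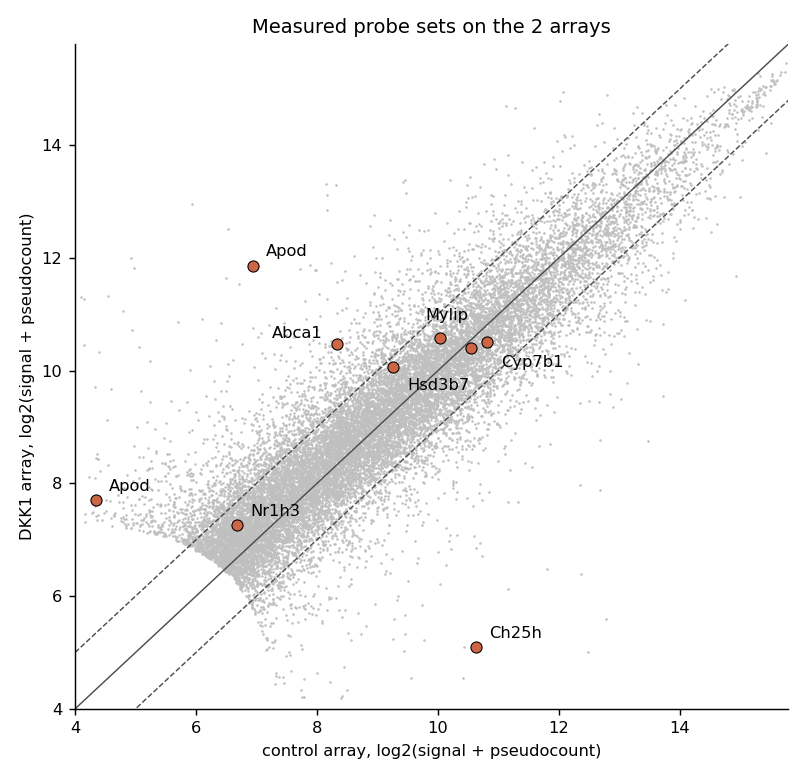
Measured probe sets with 1 gene symbol, log2(signal + 16.6) on the control array against the DKK1 array, with the members as large points, the line of equal signal solid and 2-fold lines dashed. Ch25h lies far below the 2-fold band and Abca1 and both Apod probe sets above it, while Cyp7b1, Hsd3b7, Nr1h3 and Mylip lie within.

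The genes with the most similar pair of signals were found by the Euclidean distance between log2(signal + 16.6) values over the 2 arrays, which is a weak likeness as it rests on 2 points. Nearest to Apod were Prelp (distance 0.19), a leucine-rich matrix protein, Cbr3 (0.32), a carbonyl reductase, and Postn (0.41), the matrix protein periostin. Nearest to Ch25h were Dcn (0.59), the proteoglycan decorin, Slc7a11 (0.79), a cystine transporter, and Prag1 (0.88). Dcn and Prag1 rest on 1 measured probe set each, and with their dim probe sets counted their differences of −5.86 and −4.54 became −2.26 and −1.80 and were no longer called.

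Around the members, 7 lists of related genes held 114 genes, of which 73 were measured. In them 8 of the 73 genes were called higher and 5 lower, close to the shares of 11.7% and 6.91% among all measured genes. The median difference was 0.29, against 0.10 over all measured genes. The counts called in single lists are small, and nothing is read from them. Among 8 measured enzymes that act on the sterol side chain or ring, 2 were higher, 0 lower and the median was 0.58. Cyp39a1, which hydroxylates 24-hydroxycholesterol, read 22.1 in the control cells and 167 in those with DKK1, at least 2.34-fold higher. Scp2, a sterol carrier and peroxisomal thiolase, was called at 1.05 (SD 0.61 between 4 probe sets), but the call ended under 9 of 13 alternatives. Cyp27a1, which makes 27-hydroxycholesterol, went from 193 to 244, and its difference of 0.31 turned to −0.28 with poly-A scaling. The largest of the 8 differences in size was that of Cyp39a1, at 2.24, against −5.54 for Ch25h.

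Of 13 measured LXR partners and coregulators, 1 was called higher and 0 lower, with a median of 0.50. Over all measured genes the shares were 11.7% and 6.91%, and nothing is read from these counts. Nrip1, a corepressor of nuclear receptors, was called at 1.05 (SD 1.19 between 5 probe sets), where 1 probe set at 3.10 stood apart from the others, and the call ended under 10 of 13 alternatives, with a turn to −0.052 on poly-A scaling. Rxra, the usual partner of LXR, was not called, at 0.78, with its brighter probe set at 286 in control and 620 in DKK1 cells. It was called with the stricter filter or the brightest probe set alone (1.07 in both) and with hybridisation scaling (1.14), and went to 0.18 on poly-A scaling.

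Other LXR targets went both ways. The 12 measured genes included 2 called higher and 1 called lower, around a median of 0.016. Over all measured genes the shares were 11.7% and 6.91%, so these counts are not particular to LXR targets. Pltp, the phospholipid transfer protein gene, was higher on both its probe sets, from 3274 to 10328 and from 249 to 1166, a mean difference of 1.90 (SD 0.35 between 2 probe sets). Scd1, which encodes a fatty acid desaturase, was higher by a mean of 1.33 over its 2 probe sets (SD 0.016), although poly-A scaling ended that call at 0.70. Lpl, the lipoprotein lipase gene, read 629 in the control cells and 47.1 in those with DKK1 and was at least 8.82-fold lower. Srebf1, through which LXRs drive fatty acid synthesis, was nearly level at 1250 and 1147, a difference of −0.12 that was 0.25 with scaling on the hybridisation controls. The log2 ratio of the bright Abca1 probe set exceeded that of Srebf1 by 2.34.

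Lipoprotein receptors had 0 of 7 measured genes higher and 1 lower, with a median of 0.29. For this list and the next, the shares over all measured genes were 11.7% and 6.91%, and nothing is read from the counts. The lower one was Lrp8, a receptor for apolipoprotein E, with signals of 204 and 269 in control against 71.6 and 54.2 in DKK1 cells. Of 20 measured genes for sterol sensing, binding and transport, 1 was higher, 1 lower and the median was 0.21. Insig1, which holds the sterol sensor complex in the endoplasmic reticulum, was higher, at 801 in control and 2062 in DKK1 cells (1.35), and dropped to 0.71 on poly-A scaling. Npc1, which exports cholesterol from lysosomes, was lower at the threshold, from 874 to 427 (−1.01), and was not called with the larger pseudocount (−0.93) or with hybridisation scaling (−0.64). Gpr183, the cell surface receptor for an oxysterol made in turn by Ch25h and Cyp7b1, was below the filter in mean signal on both probe sets, with single readings up to 81.8.

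Of the other apolipoproteins and lipocalins, 3 of 14 were measured and none was called, with a median of 0.51. Clu, also known as apolipoprotein J, was just short of the threshold at 0.98 (SD 0.32 between 4 probe sets) and was called under 5 alternatives. Bsg, a receptor for apolipoprotein D, went from 3572 to 5085, a difference of 0.51, or −0.13 on poly-A scaling. Among 10 measured relatives of Abca1 and Abcg1, 2 were called higher and 2 lower around a median of 0.032. The shares over all measured genes were 11.7% and 6.91%, and 10 genes are too few to be set apart from them. Abca9, a member of the same transporter family, was higher, from 305 to 3021, a 9.89-fold difference, and its neighbour in the family Abca6 went from 16.6 to 127. Raising the dim signal to the filter took Abca6 to 0.83, short of the threshold. Abcg2, a drug efflux pump, was lower, from 801 to 328 (−1.25), and was not called with hybridisation scaling (−0.89). The other gene called lower was Abca8a, at −1.05, so the relatives of Abca1 went both ways.

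**Figure D3:**
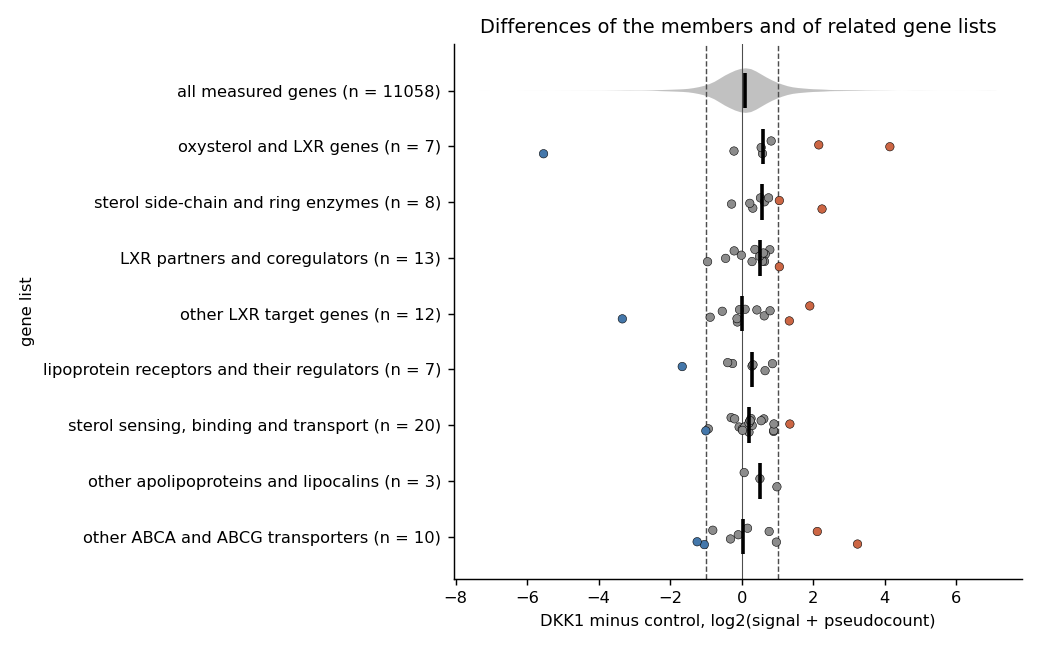
DKK1 minus control difference in log2(signal + 16.6) for each measured gene of the members and of 7 related lists, with the distribution of all 11058 measured genes at the top, black bars at medians and dashed lines at 2-fold. Most listed genes lie within the 2-fold lines, and Ch25h at −5.54 and Apod at 4.14 lie farthest out of the listed genes.

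Markers of cell types were read beside these values. Over all measured genes 11.7% were called higher and 6.91% lower, and nothing is read from the small counts of markers called. The marker genes were not recomputed under the alternative settings, so their calls hold for the deposited scaling. Among osteoblast markers 6 of the 8 with probe sets were measured, with Col1a1, Col1a2 and Sparc bright on both arrays, Sp7 at 87.0 and 117, and Ibsp and Dmp1 below the filter. Phex, an endopeptidase gene of osteoblasts and osteocytes, was the 1 marker of this list that was called. It went from 199.9 in control to 1.97 in DKK1 cells, at least 2.80-fold lower. Its other probe set was dim on both arrays, at 2.42 and 4.43, so the lower level of Phex rests on 1 probe set. The summed brightest signals of the list, in which the collagen genes weigh most, were 42751 in control and 47173 in DKK1 cells. Of 12 macrophage markers 5 were measured, and the summed signals were 904 and 1174. Of these 5, 1 was called higher, Lyz2, a lysozyme gene, from 14.5 to 136, and 1 lower, Laptm5, a lysosomal membrane protein gene, from 113 to 44.2. The DKK1 signal of Laptm5 and the control signal of Lyz2 lay below the filter. The call of Laptm5 rests on 1 measured probe set. A dim probe set of Laptm5 went the other way, from 14.1 in control to 53.4 in DKK1 cells (1.19). Its remaining dim probe sets had differences from −0.42 to −0.033. Cd14 (370 to 521), Cd68 (86.4 to 127) and Csf1r (0.45, SD 0.29 between 2 probe sets) were measured and not called. The Csf1r probe set below the filter in mean signal went from 91.7 to 47.7. The leukocyte gene Ptprc and the macrophage gene Adgre1 were below the filter on both arrays. Their highest signals were 11.7 for Ptprc and 53.1 for Adgre1. Of 5 adipocyte markers 2 were measured and both were called higher, Fabp4 at 1.31 (SD 0.35 between 2 probe sets) and Pparg at 2.47, from 84.0 to 540, while Adipoq, Lep and Cidec were below the filter. Their summed signals were 716 and 1879. Hepatocyte markers were near background, with 1 of 6 measured and summed signals of 157 and 149. The part of the adipocyte genes in the values of Apod, Lpl and the LXR targets was not tested. Fewer cells of a kind and less RNA per cell cannot be told apart in such bulk samples.

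Of 90 member differences recomputed under 13 other processing choices, 84 kept their call and, where not called, stayed within 0.45 of the value given.

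**Figure D4:**
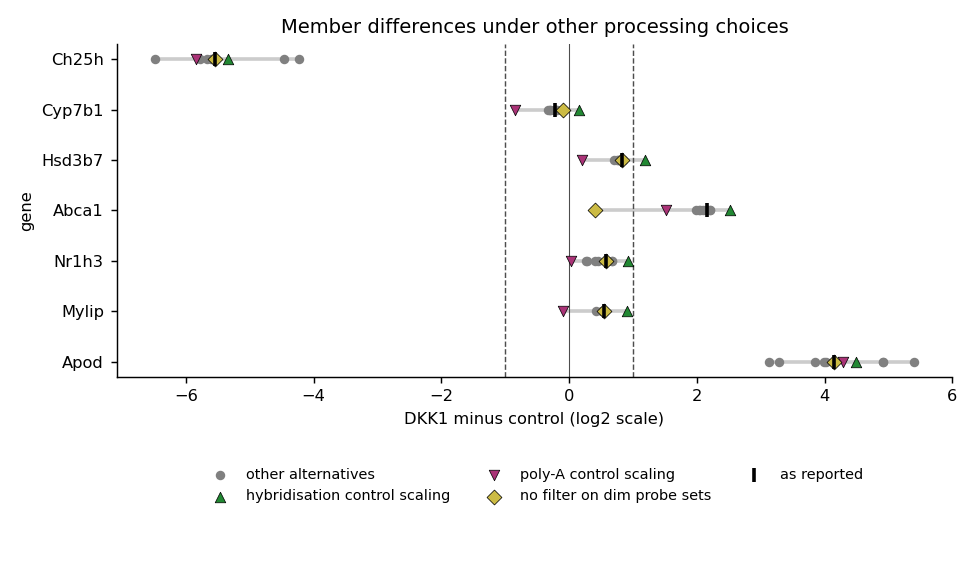
Difference of each measured member on the log2 scale as reported (black bar) and under 13 alternative processing choices, with dashed lines at 2-fold. Ch25h lies between −6.49 and −4.23 and Apod between 3.13 and 5.41, Abca1 drops to 0.41 with no filter on dim probe sets, and the 4 members that were not called shift with the control scalings.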

How the data were processed

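Total RNA of 2 MOS-J samples was labelled with biotin from 500 ng and hybridised to 1 mouse expression array each, per the labels' protocols. The deposited values are intensity signals on a linear scale, 1 per probe set, which the authors made with MAS5 per the submitters' processing notes. Its version and settings, and the genome build of the array, are not stated there. Of 45101 probe sets, 34945 other than controls carry 1 symbol in the platform annotation, of which 34741 matched by gene ID to RefSeq (GRCm38.p6). The pseudocount, the filter and the call rule are given with the results. The number of arrays limits the precision, and no test or p-value was computed. All members were named, and from each list up to 3 called genes with the largest differences, or 2 where none was called. Srebf1, Rxra, Cyp27a1, Gpr183 and Abca8a were named as well. The nearest genes left out clones and predicted genes. Members and lists were chosen with earlier results of these data known. Python 3.11.15, pandas 2.3.3 and statsmodels 0.14.6 (loess span 0.4) were used, and the code was tested on simulated data.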

Additional observations from a re-analysis of the deposited data

How the results depend on the processing

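The alternatives were no pseudocount or 69.9, no filter or one of 427 on the mean signal, dim signals raised to the filter, median centring, quantile normalization, loess, scaling on hybridisation or poly-A controls, the brightest probe set or the median per gene, and no _x_at or _s_at probe sets. The count of members called lower was 1 under all 13. The count called higher was 1 without the filter and 2 or 3 otherwise. The members' median difference was 0.025 on poly-A scaling, where the median of all genes was −0.53, and 0.92 on hybridisation scaling, where it was 0.47. Nrip1 turned to −0.052 on poly-A scaling. Higher genes made up 62.9% of all calls as deposited, 49.9% after quantile normalization, 51.4% with median centring, 51.8% with loess, 53.2% with the stricter filter, 86.4% on hybridisation scaling and 14.6% on poly-A scaling. No paired analysis was possible because each group has 1 array. Signals below the filter limit what can be said of Abcg1, Apoe and Gpr183.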

Other observations

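Genes that relay type I interferon signals were looked up after the Ch25h value had been seen. Of the 6 measured, 2 were called higher and 0 lower on the deposited scaling, where 11.7% and 6.91% of all measured genes were, and nothing is read from so small a count. Irf7, an interferon-induced transcription factor gene, was higher, from 263 in control to 1350 in DKK1 cells, and so was Stat2 (1.25, SD 0.50 between 2 probe sets). Irf1 (0.74), Irf9 (0.63) and the receptor genes Ifnar1 (0.63) and Ifnar2 (0.83) were not called.

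Genes of cholesterol synthesis, which 25-hydroxycholesterol holds back in cultured cells, were looked up in the same way. Hmgcs1, which encodes a synthase early in the pathway, was higher by 1.61 (SD 0.26 between 5 probe sets) and Idi1, an isomerase gene, by 1.22 (SD 0.22 between 2 probe sets). Sqle, the squalene epoxidase gene, was not called, at 0.52. Over all measured genes 11.7% were called higher, and nothing is read from so few genes. These values hold for the deposited scaling and were not recomputed under the alternatives. The poly-A controls had a median log2 ratio of 0.64, a shift large enough to matter for calls near the threshold. A link to the Ch25h value was not tested. No sterol was measured in these data.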
